A study of Mus musculus with 4 samples.

Results

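The Wnt ligands, their receptors and the proteins that modulate them were followed in embryonic mouse eye tissue with and without Anp32b. The members were chosen by gene symbol: the Wnt ligands, Frizzled receptors, LRP5 and LRP6, the SFRP, DKK, WIF1 and NOTUM inhibitors, Kremens, R-spondins, their LGR receptors, the ligases RNF43 and ZNRF3, Porcupine, beta-catenin, the Axins and the TCF/LEF factors. This gave 61 of the 18702 genes listed in each library. Total RNA was isolated with Trizol, and 4 Illumina libraries were built from 1 ug each. The 2 wild-type libraries (Anp32b+/+) and the 2 knockout libraries (Anp32b-/-) were from eye tissue of embryos of the C57BL/6 strain. Anp32b encodes an acidic nuclear phosphoprotein, and the series asks what ANP32B deficiency does to ocular development and PAX6. Both groups shared strain, tissue and extraction. The embryonic age, the sex, the number of embryos per library, the extent of dissection and the design of the null allele were not stated in the material used. No label says whether replicate libraries had different embryos as their source, and the p-values therefore measure only how far these libraries spread, which may be technical.

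Wnts are secreted, lipid-modified signalling proteins. They bind a Frizzled receptor together with LRP5 or LRP6, which stops the Axin-containing destruction complex from removing beta-catenin, and beta-catenin then acts with TCF/LEF factors in the nucleus. Other Wnts act through Frizzled, ROR or RYK receptors on cell shape and polarity without beta-catenin. Secreted inhibitors bind Wnts or LRP receptors, whereas R-spondins keep Frizzled receptors at the cell surface by drawing off the ligases that remove them. In the eye the pathway is known for setting the border between neural retina, ciliary margin and pigment epithelium, for its part in the lens and the cornea, and for the growth and regression of ocular vessels.

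Levels are given as FPKM, fragments per kilobase of transcript scaled to the library, as deposited by the authors, so that genes can be compared per length. Differences are knockout over wild type in log2(FPKM + 1), a scale on which genes at a few FPKM appear to change less than they do. Tests are limma with a variance trend over the 13887 genes whose mean reached 1 FPKM, and the Benjamini-Hochberg adjusted p had to be under 0.05. Low FPKM values were spaced as if the libraries held about 17640000 to 17840000 fragments, an estimate that varies little between libraries. For the targeted gene Anp32b, FPKM was 163 and 179 in wild-type and 94.5 and 92.7 in knockout libraries, 54.7% of the wild-type mean (limma log2 difference -0.86, adjusted p = 1.11e-05). Which part of the gene was deleted is not given, so the fall matches the labels in direction without measuring the loss of protein.

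Markers of the tissues in and around the eye differed between the genotypes. Summed FPKM of 12 lens markers, the crystallins Cryaa and Cryab first among them, ran from 31730 to 32387 in the wild-type libraries and from 3152 to 3175 in the knockout libraries, 0.0987 of the wild-type level, and all 12 fell. The other lists moved as well, in both directions. All these lists were drawn up with earlier results of these data known. Over all genes tested, 33.5% rose and 21.1% fell. Only tested markers could be counted as risen or fallen. These were 8 of the 10 pigment epithelium and melanocyte, 6 of the 8 cartilage and 7 of the 8 bone markers. They were also 11 of the 12 surface epithelium, 6 of the 10 forebrain and 7 of the 8 erythroid markers, and all of the other lists. The knockout sums were 0.778 times the wild-type sums for 12 neural retina markers (2 rose and 10 fell), 0.849 for 10 pigment epithelium and melanocyte markers (1 rose and 5 fell) and 0.913 for 8 cartilage markers (3 rose and 2 fell). They were 2.21 times as high for 12 markers of periocular mesenchyme such as Col1a1 and Col1a2 (12 rose), 8.28 times for 8 bone markers such as Ibsp and Spp1 (7 rose), 2.03 times for 10 skeletal muscle markers (10 rose) and 1.98 times for 12 markers of surface epithelium and epidermis (9 rose and 1 fell). The ratio was 1.26 for 10 vascular endothelium markers (8 rose and 1 fell), 1.48 for 10 forebrain markers (5 rose and 1 fell), 1.5 for 8 erythroid markers (6 rose) and 1.89 for 8 macrophage markers (8 rose). With TPM the ratios were 0.107 for lens, 0.847 for retina, 0.924 for pigment epithelium and 0.993 for cartilage, and 1.37 or more for the other lists. No list had a marker at 0 in every library, and retina marker sums of 685 to 888 FPKM showed eye tissue in all 4 libraries. In bulk tissue, fewer cells of a type and less RNA per cell cannot be told apart, and the part of these shifts in the results on Wnt genes was not tested.

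Among the 61 members, 52 reached a mean of 1 FPKM and were tested. Of these, 35 rose in the knockout (67.3%, against 33.5% of all genes tested) and 8 fell (15.4%, against 21.1% of all genes tested). With a log2 difference of at least 0.5 required as well, 25 rose (48.1%, against 11.7%) and 5 fell (9.62%, against 3.94%). The 2 knockout values lay wholly above or below the 2 wild-type values for 48 of the 52 (92.3%, against 77.9% of all genes tested). The median log2 difference was 0.47 for the members and 0.04 for all genes tested. The members were chosen with earlier results of these data known, so these shares are descriptions and no test. Wnt7a, Rspo3 and Wnt16 reached the mean of 1 FPKM only through the genotype in which they were higher.

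FPKM depends on all other transcripts of a library, and the lens transcripts that fell were very abundant. Of all calls, 61.3% were upward with FPKM as deposited, 80.6% with the deposited TPM values, 51.6% with median-of-ratios scaling and 44.9% after scaling without crystallin and haemoglobin genes. The median of all genes was 0.16 with TPM and -0.04 without crystallin and haemoglobin genes, and that of the members 0.61 and 0.39. Of the 43 members called, 40 kept their call under all 3 other scalings. The exceptions were Porcn, not past the threshold with TPM, Lef1, not past it without crystallin and haemoglobin genes, and Ctnnb1, not past it in either that or the median-of-ratios scaling.

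**Figure D1:**
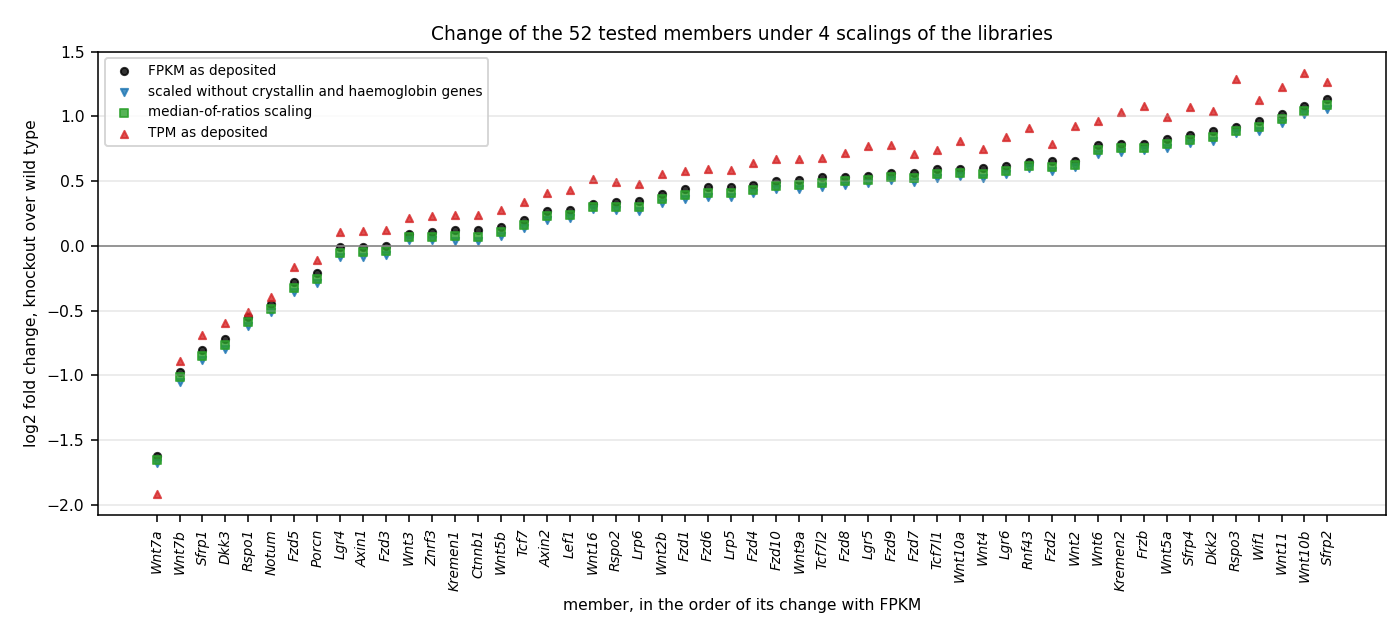
Log2 differences, knockout over wild type, of the 52 tested members (vertical axis) in the order of their change with FPKM (horizontal axis), under 4 scalings of the libraries. TPM values lie highest except for Wnt7a, and Axin1 and Lgr4 lie above 0 with TPM and below it under the other 3 scalings.

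Promoter sequence from RefSeq's table (GRCm38.p6) is shown for Sfrp2 and Wnt11, whose rises were the largest among members in that table whose mean reached 5 FPKM. It is also shown for Wnt7a, which fell most but has a lower mean and was added after its values were seen. Of the members past that mean, Wnt7b, Sfrp1 and Dkk3 fell most and had no entry there. Fzd5 (log2 difference -0.28), the largest such fall with an entry, is not shown. Each line gives the 250 bases before an annotated start, 5′ to 3′ on the gene's strand, and capitals mark GC boxes (CCGCCC or its reverse complement) and TCF/LEF letters (CTTTGAT or CTTTGAA, or their reverse complements). The Wnt7a stretch is chr6:91411354-91411603 (minus strand), the Sfrp2 stretch chr3:83766071-83766320 (plus strand), and the stretches before the starts of Wnt11 chr7:98834862-98835111 and chr7:98838595-98838844 (plus strand).
Wnt7a: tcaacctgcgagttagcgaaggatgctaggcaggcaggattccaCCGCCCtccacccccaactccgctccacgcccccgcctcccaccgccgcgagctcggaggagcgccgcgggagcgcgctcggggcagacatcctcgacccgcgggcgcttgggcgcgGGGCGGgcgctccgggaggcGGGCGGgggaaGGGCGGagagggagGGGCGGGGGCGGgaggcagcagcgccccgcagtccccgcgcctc
Sfrp2: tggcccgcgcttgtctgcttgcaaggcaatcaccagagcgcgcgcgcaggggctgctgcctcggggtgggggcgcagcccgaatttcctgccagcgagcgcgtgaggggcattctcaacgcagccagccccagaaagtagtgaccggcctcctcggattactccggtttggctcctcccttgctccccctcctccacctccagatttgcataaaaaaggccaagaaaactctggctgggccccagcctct
Wnt11, start 1: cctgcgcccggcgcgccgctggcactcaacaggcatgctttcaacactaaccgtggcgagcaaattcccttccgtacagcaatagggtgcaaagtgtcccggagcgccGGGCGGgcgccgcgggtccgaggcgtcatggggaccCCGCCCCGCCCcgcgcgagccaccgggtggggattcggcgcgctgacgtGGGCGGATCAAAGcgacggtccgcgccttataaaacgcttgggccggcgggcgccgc
Wnt11, start 2: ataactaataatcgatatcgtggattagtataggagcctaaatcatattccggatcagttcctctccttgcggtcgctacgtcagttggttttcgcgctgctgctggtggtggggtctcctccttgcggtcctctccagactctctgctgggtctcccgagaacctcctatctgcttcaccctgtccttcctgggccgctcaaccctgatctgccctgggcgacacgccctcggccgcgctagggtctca

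The Wnt7a stretch held 6 GC boxes and was 77.6% G or C, whereas the Sfrp2 stretch held none and was 63.6% G or C. Start 1 of Wnt11 had 4 GC boxes and 1 TCF/LEF match, which directly adjoined a GC box, and start 2 had neither. Promoters on chromosome 18, where Fzd8 and Wnt8a lie, were left out. Promoters were found for 39 of the 61 members, 49 promoters in all. Each had 300 bases (250 before and 50 after a start), and both strands were searched. TCF/LEF letters were in 3 of the 49 (6.12%, before Wnt11, Wnt5b and Dkk1), against 8.65% of the 32851 promoters searched. GC boxes were in 73.5% of the members' promoters, against 35.7% of all promoters searched. All promoters searched belong to 27025 genes, more than the 18702 listed in each library, so both comparisons include genes not measured here. A match describes the letters and no bound site.

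The Wnt ligands came first in the width of their change. Of 19 ligand genes, 14 were tested, with a median log2 difference of 0.55. Of these, 9 rose and 2 fell (64.3% and 14.3%, against 33.5% and 21.1% of all genes tested). Both genes that fell belong to the Wnt7 subfamily, whose proteins act with RECK and ADGRA2 on brain vessels. For Wnt7a (chr6:91363981-91411363, minus strand), known for its part in limb patterning and synapses, FPKM was 4.73 and 4.04 in wild-type libraries against 0.72 and 0.77 in knockout libraries. The wild-type mean was 5.89 times the knockout mean, and the log2 difference was -1.62 (SE 0.09, limma adjusted p = 1.67e-05). The groups did not overlap, as for 77.9% of all genes tested. Wnt7b (chr15:85535437-85582473, minus strand), known in the eye for the regression of hyaloid vessels, was the most abundant ligand of the wild type at 23.7 and 20.98 FPKM. In the knockout it stood at 10.5 and 11.2 FPKM, below both wild-type values (log2 difference -0.97, SE 0.06, limma adjusted p = 2.9e-05). Exons on the other strand cover 6.6% of Wnt7b's exon bases, and likewise 13.7% of Lef1, 13.1% of Rspo3, 9.4% of Kremen2, 8.8% of Wnt11 and 3.2% to 4.6% of Wnt5a, Tcf7l1, Axin2 and Fzd6. Whether counting used strand is not stated, so reads of such pairs cannot be told apart.

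On the FPKM scale, 3 of the tested ligands were at least 2.13-fold higher in the knockout. Wnt10b, known for promoting bone formation, had FPKM of 2.06 and 2.23 in the wild type and 5.6 and 5.68 in the knockout, 2.63-fold higher (log2 difference 1.08, SE 0.07, limma adjusted p = 2.67e-05). Wnt11, a ligand of convergent extension whose promoters are printed above, went from 3.35 and 4.08 FPKM to 8.05 and 9 FPKM (1.02, SE 0.09, limma adjusted p = 0.000117). Wnt2, known from lung development, was much scarcer, at 1.1 and 1 FPKM in the wild type and 2.02 and 2.46 FPKM in the knockout (log2 difference 0.66, limma adjusted p = 0.00156). With a pseudocount of 0.1 the log2 difference of Wnt2 was 1.02. In each of the 3, both knockout libraries exceeded both wild-type libraries. Groups lay apart, in either direction, in 77.9% of all genes tested.

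Wnt5a, the ligand best known for signalling without beta-catenin, had 5.31 and 5.54 FPKM in the wild type and 10.2 and 10.6 FPKM in the knockout (log2 difference 0.83, SE 0.05, limma adjusted p = 2.9e-05). Wnt4, known from kidney tubules and gonads, had 6.4 and 6.4 FPKM in the wild type and 9.92 and 10.5 FPKM in the knockout (0.60, limma adjusted p = 0.000112). These were the 2 most abundant ligands that rose by at least 0.5. Wnt6 and Wnt10a, ligands of the surface ectoderm and of teeth and skin, lie 6194 bases apart on chromosome 1 on the same strand. Wnt6 had FPKM of 4.12 and 3.82 against 7.44 and 7.61 (log2 difference 0.78, limma adjusted p = 6.62e-05). For Wnt10a the values were 2.03 and 2 against 3.29 and 3.85 (0.60, limma adjusted p = 0.00115). Wnt9a, known from joints, had 3.56 and 3.35 FPKM against 5.03 and 5.63 FPKM (0.51, limma adjusted p = 0.00121). In all 5 the genotypes were apart in every library, as in 77.9% of all genes tested.

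Smaller or absent changes made up the rest of the ligands. Wnt2b, known from the pigment epithelium and the ciliary margin, rose from 4.15 and 4.27 FPKM to 5.93 and 5.82 FPKM (log2 difference 0.40, limma adjusted p = 0.00129). Wnt5b, the second ligand of the Wnt5 subfamily, was at 8.28 and 7.55 FPKM in the wild type and 8.62 and 9.15 FPKM in the knockout, with a difference of 0.15 that missed the threshold (95% interval 0.00 to 0.30). It passed with TPM (0.27, limma adjusted p = 0.00938), and was 0.08 after scaling without crystallin and haemoglobin genes (adjusted p = 0.339) and 0.09 without wild-type library 2 (adjusted p = 0.310). Wnt16 differed by 0.33 (95% interval -0.02 to 0.67) and Wnt3 by 0.10 (-0.13 to 0.32) without passing. Wnt16 passed with TPM (0.52, limma adjusted p = 0.0439) and without knockout library 1 (0.53, limma adjusted p = 0.0251), but its difference was 0.12 without knockout library 2 (adjusted p = 0.454). The other 5 ligands had too little signal for a test. Wnt3a, Wnt9b and Wnt8b lay between 0.03 and 0.27 FPKM in every library, and Wnt1 and Wnt8a between 0 and 0.09 FPKM, estimated at 4 fragments or fewer each. Wnt1 and Wnt3a lie beside Wnt10b and Wnt9a, 11707 and 16176 bases away, and these neighbours were well detected.

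**Figure D2:**
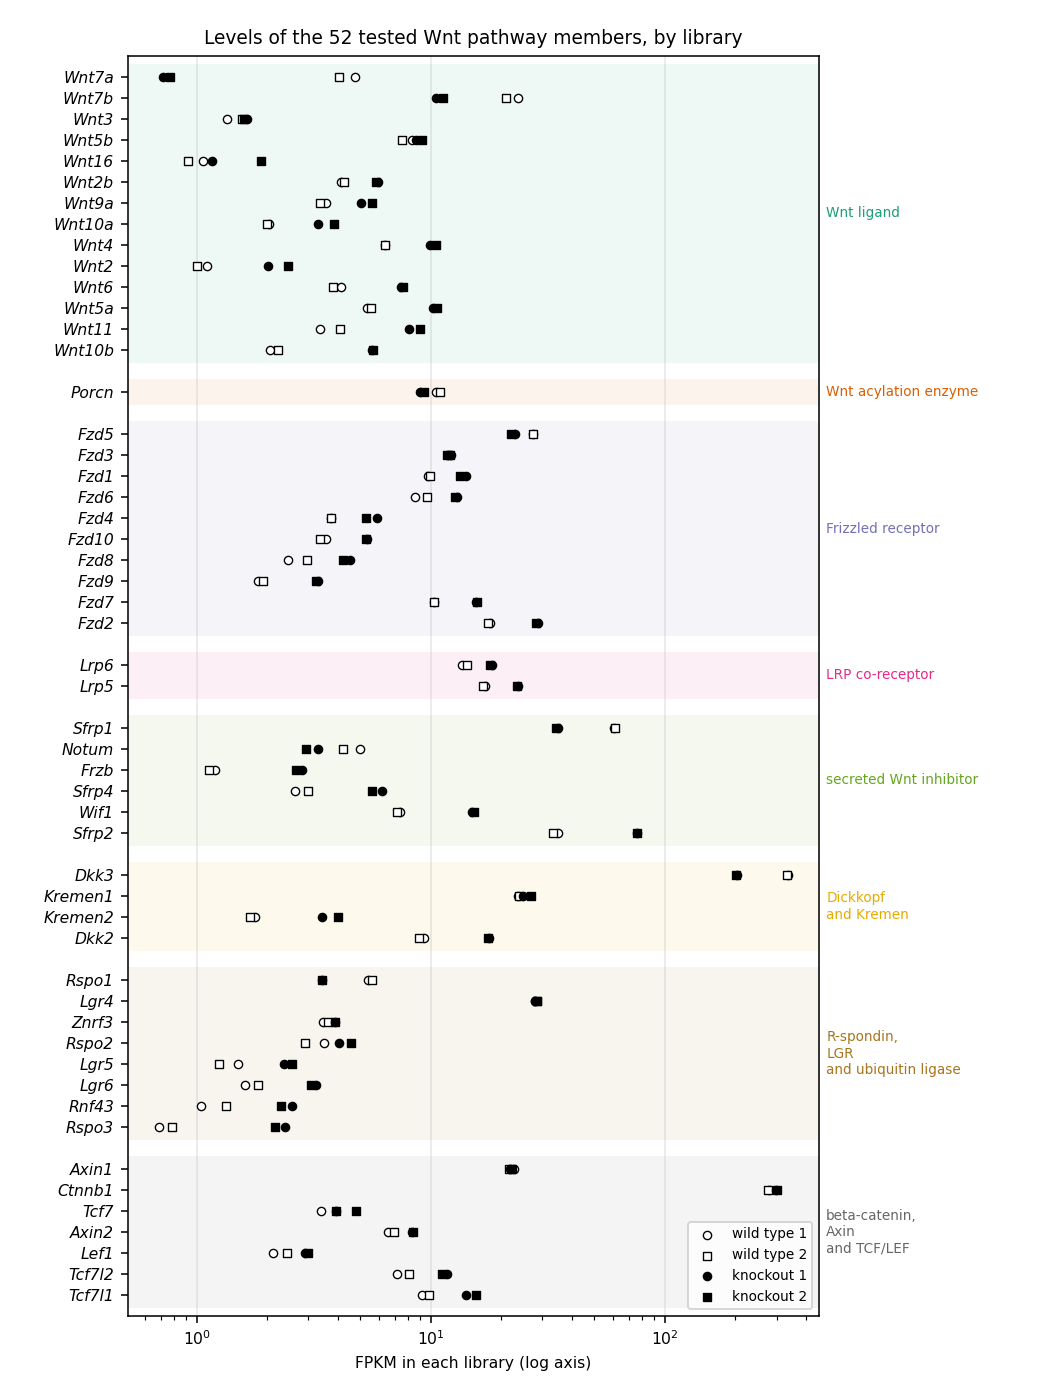
FPKM (horizontal log axis) of each of the 52 tested members in every library, grouped by role and ordered by change within a role; open symbols are wild-type and filled symbols knockout libraries. Replicates lie close together, Wnt7a, Wnt7b, Sfrp1 and Dkk3 have their knockout values to the left, and most others have them to the right.

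Genes for the 2 steps of ligand release moved in different directions. Porcn encodes the enzyme that acylates Wnts, and its FPKM was 10.5 and 10.99 in the wild type and 8.97 and 9.37 in the knockout (log2 difference -0.21, SE 0.05, limma adjusted p = 0.0108). This small fall was not past the threshold with TPM (-0.11, limma adjusted p = 0.125), without wild-type library 2 (adjusted p = 0.0651) or without knockout library 1 (adjusted p = 0.0760). Wls, which carries the acylated Wnt to the surface and belongs to a list of further pathway genes, had 26.7 and 25.7 FPKM in the wild type and 40.6 and 41.5 FPKM in the knockout (0.63, limma adjusted p = 1.54e-05). That list of release factors and alternative receptors was drawn up with earlier results of these data known. All 5 tested of its 6 genes rose, against 33.5% of all genes tested. Their median log2 difference was 0.60. Ror2, the receptor through which WNT5A acts in cartilage and limb, changed most, from 3.71 and 3.62 FPKM to 7.24 and 7.33 FPKM (0.83, limma adjusted p = 3.86e-05). Ptk7, a polarity co-receptor, rose by 0.60 on the log2 scale, and Ryk and Ror1 by 0.23 and 0.25.

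Of the 10 Frizzled receptors, all tested, 8 rose, 1 fell and 1 did not pass, with a median log2 difference of 0.49. The shares that rose and fell were 80% and 10%, against 33.5% and 21.1% of all genes tested. Fzd2 (chr11:102604396-102608058, plus strand), which binds WNT5A among others, had 17.8 and 17.5 FPKM in the wild type and 28.6 and 28.2 FPKM in the knockout (0.66, SE 0.04, limma adjusted p = 1.32e-05). Fzd5 (chr1:64730558-64737751, minus strand), a receptor of retinal progenitors, moved the other way, from 27.4 and 27.4 FPKM to 22.9 and 22.01 FPKM (-0.28, SE 0.04, limma adjusted p = 0.000765). The most abundant Frizzled was thus Fzd5 in both wild-type libraries and Fzd2 in both knockout libraries. With TPM the fall of Fzd5 was smaller, -0.16, and a transcript annotated on the other strand shares 17.8% of its exon bases. Fzd3, a receptor of axon guidance, had overlapping groups, at 11.8 and 12.04 FPKM in the wild type and 12.2 and 11.7 FPKM in the knockout (difference 0.00, 95% interval -0.11 to 0.11).

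The other Frizzled genes rose by similar amounts. Fzd7, close in sequence to Fzd2, had 10.3 and 10.3 FPKM in the wild type and 15.6 and 15.8 FPKM in the knockout (log2 difference 0.57, limma adjusted p = 4.84e-05). For Fzd9 the values were 1.83 and 1.91 against 3.28 and 3.22 FPKM (0.57, limma adjusted p = 0.000758), for Fzd8 2.46 and 2.96 against 4.51 and 4.22 FPKM (0.53, adjusted p = 0.00197). Fzd10 went from 3.58 and 3.35 FPKM to 5.35 and 5.3 FPKM (0.50, limma adjusted p = 0.000661). In none of these 4 did a knockout library overlap a wild-type library, a separation seen in 77.9% of all genes tested. Fzd4, the receptor of the retinal vessel ligand Norrin, rose by 0.47, Fzd6, a tissue polarity receptor, by 0.45 and Fzd1 by 0.44 (limma adjusted p at most 0.00128). Reads of closely related Frizzled genes could be shared, and how such reads were divided is not given.

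Both LRP co-receptors rose (100%, against 33.5% of all genes tested), neither by as much as 0.5 on the log2 scale. Lrp5, mutated in inherited disorders of bone mass and of retinal vessels, had 17 and 16.7 FPKM in the wild type and 23.6 and 23.4 FPKM in the knockout (log2 difference 0.46, SE 0.04, limma adjusted p = 7.02e-05). Lrp6 rose by 0.35 (limma adjusted p = 0.000573), from 13.6 and 14.3 FPKM to 18.3 and 17.8 FPKM. Of the 4 genes that work with Norrin and with WNT7 on vessels, 3 also rose (75%, against 33.5% of all genes tested). This list was likewise drawn up with earlier results known. Tspan12, which helps Norrin signal through FZD4, had 8.05 and 8.29 FPKM against 13.3 and 14.4 FPKM (0.69, limma adjusted p = 6.18e-05). Adgra2, the WNT7 cofactor also known as GPR124, had 15.96 and 15.8 FPKM against 26.3 and 25.6 FPKM (0.67, limma adjusted p = 1.41e-05). Its partner Reck rose by 0.39, and the gene for Norrin itself, Ndp, had overlapping groups of 2.58 and 1.89 FPKM and 2.13 and 2.49 FPKM. Of 10 vascular endothelium markers, 8 rose and 1 fell (80% and 10%, against 33.5% and 21.1% of all genes tested). Their median log2 difference was 0.69. Their sum, 1.26 times as high, includes the abundant marker Kdr, which fell from 61.5 and 61.6 FPKM to 48.9 and 46.2 FPKM and is named after its values were seen. The part of the vessel markers in these results was not tested.

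The secreted Wnt inhibitors moved in both directions. Of 7 genes, 6 were tested, 4 rose and 2 fell (66.7% and 33.3%, against 33.5% and 21.1% of all genes tested). Sfrp1 (chr8:23411502-23449632, plus strand) and Sfrp2 (chr3:83766321-83774316, plus strand) encode closely related proteins with a Frizzled-like Wnt-binding domain, and both are known to act in the patterning of the optic cup. Sfrp1 had 60.8 and 61.03 FPKM in the wild type against 34.9 and 34.2 FPKM in the knockout (log2 difference -0.80, SE 0.03, limma adjusted p = 3.15e-06). Sfrp2 had 35.05 and 33.2 FPKM in the wild type against 76.4 and 75.8 FPKM in the knockout (1.13, SE 0.04, limma adjusted p = 1.54e-06). Both wild-type libraries thus held more Sfrp1 than Sfrp2 and both knockout libraries more Sfrp2 than Sfrp1. A transcript annotated on the other strand shares 16.1% of the exon bases of Sfrp2.

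Wif1, which binds Wnts through a domain unlike that of the SFRPs, had 7.38 and 7.19 FPKM in the wild type and 14.96 and 15.3 FPKM in the knockout (log2 difference 0.96, SE 0.05, limma adjusted p = 7.74e-06). Sfrp4, known from bone, had 2.63 and 3 FPKM against 6.19 and 5.62 FPKM (0.86, limma adjusted p = 0.000143). Frzb, a cartilage SFRP, had 1.19 and 1.13 FPKM against 2.81 and 2.66 FPKM (0.79, limma adjusted p = 0.000262). Each of the 3 was at least 2.08-fold higher on the FPKM scale, with both knockout libraries above both wild-type libraries. Of all genes tested, 77.9% had groups apart in either direction. Notum, which strips the lipid from Wnts, fell from 4.97 and 4.23 FPKM to 3.28 and 2.93 FPKM (-0.45, SE 0.09, limma adjusted p = 0.00489). Without knockout library 2 the fall of Notum was not past the threshold (-0.38, limma adjusted p = 0.0535), and 29.4% of its exon bases are shared with the antisense transcript Notumos. Sfrp5 was below the level for a test, at 0.37 and 0.2 FPKM and 0.71 and 0.54 FPKM.

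**Figure D3:**
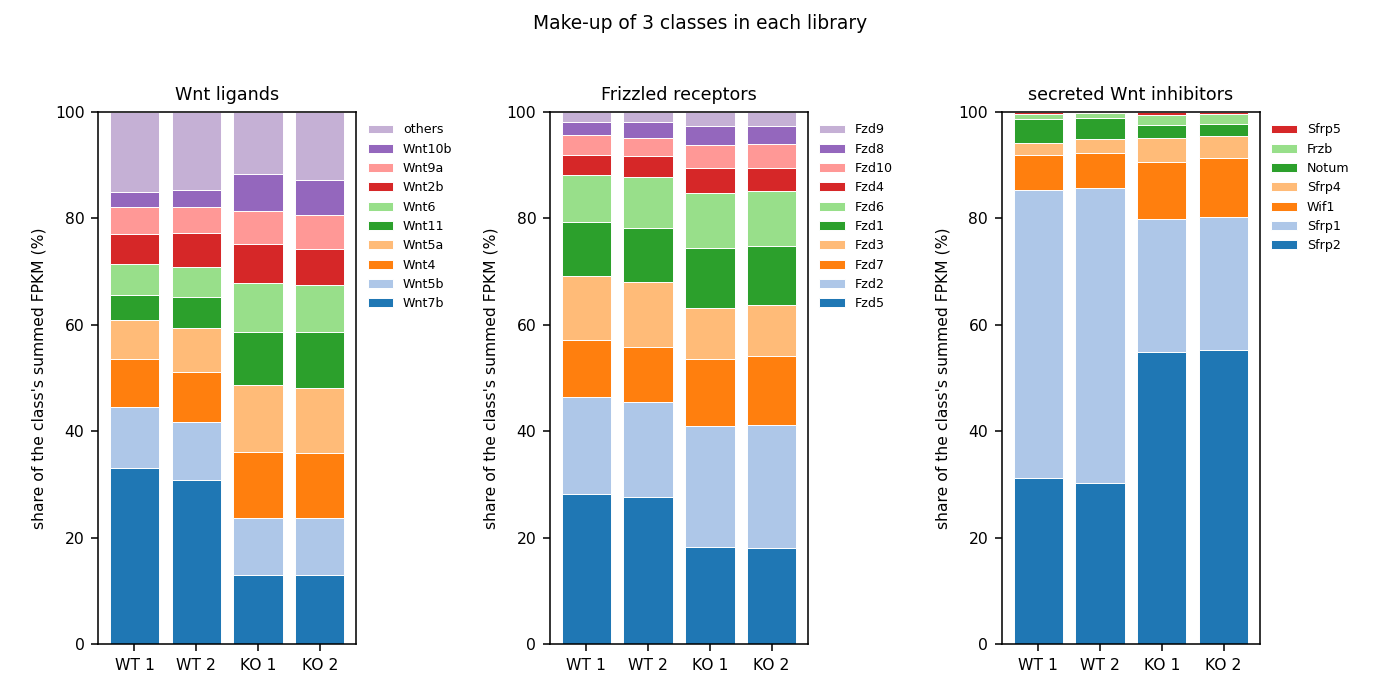
Share (vertical axis, %) of each gene in the summed FPKM of the ligands, the Frizzled receptors and the secreted inhibitors in each library (WT wild type, KO knockout; "others" are the ligands outside the 9 named). Wnt7b shrinks from 33.0% and 30.8% to 13.1% and 13.0% of ligand FPKM, Fzd5 from 28.2% and 27.7% to 18.2% and 18.1% of Frizzled FPKM, and Sfrp2 grows from 31.2% and 30.2% to 54.9% and 55.3% of inhibitor FPKM.

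The make-up of 3 classes shifted along with their sums. Summed ligand FPKM was 71.7 and 68.2 in the wild type and 80.7 and 86.2 in the knockout, summed Frizzled FPKM 97.2 and 98.7 against 125 and 122, and summed inhibitor FPKM 112.4 and 110.0 against 139 and 137. Wnt7a made up 6.60% and 5.92% of ligand FPKM in the wild type and 0.892% and 0.894% in the knockout. The share of Sfrp1 among the inhibitors was 54.1% and 55.5% in the wild type and 25.1% and 25.0% in the knockout, and that of Fzd2 among the Frizzled genes 18.3% and 17.7% against 22.8% and 23.1%. Shares do not depend on the scaling of a library, whereas sums do. Not every class sum rose. The Dickkopf and Kremen sum fell from 371 and 367 FPKM in the wild type to 250 and 252 FPKM in the knockout. An exact permutation test of 2 against 2 libraries cannot go below p = 0.333 (two-sided), so the shares are given without a test, and the plot of class make-up shows them library by library.

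The Dickkopf and Kremen genes were dominated by Dkk3 (chr7:112116017-112159057, minus strand), a divergent family member that does not block LRP receptors in the way of the other Dickkopfs and is abundant in the retina. Its FPKM was 335 and 332 in the wild type and 203 and 202 in the knockout (log2 difference -0.72, SE 0.03, limma adjusted p = 2.96e-06), the highest level of any secreted member. Dkk2, an LRP inhibitor that keeps the ocular surface epithelium corneal, went the other way, from 9.35 and 8.87 FPKM to 17.7 and 17.6 FPKM (0.89, SE 0.05, limma adjusted p = 1.02e-05). Kremen2, a receptor for Dickkopfs, had 1.77 and 1.69 FPKM against 3.44 and 4 FPKM (0.79, limma adjusted p = 0.000324). Kremen1 was more abundant, at 23.6 and 23.7 FPKM in the wild type and 24.8 and 26.7 FPKM in the knockout, and its difference of 0.12 missed the threshold (limma adjusted p = 0.0538, 95% interval 0.02 to 0.22). It passed with TPM (0.24, limma adjusted p = 0.00227) and without knockout library 1 (0.17, limma adjusted p = 0.0405). It was 0.07 without knockout library 2 (adjusted p = 0.272), 0.07 with median-of-ratios scaling (adjusted p = 0.192) and 0.04 after scaling without crystallin and haemoglobin genes (adjusted p = 0.454). Dkk1, the classical LRP inhibitor, was below the mean of 1 FPKM set for the test. It had 0.67 and 0.86 FPKM in the wild type and 1.2 and 1.14 FPKM in the knockout. Dkk4 lay between 0.03 and 0.04 FPKM in every library.

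R-spondins, their LGR receptors and the ligases they draw off were 9 genes, of which 8 were tested, 5 rose and 1 fell. The shares that rose and fell were 62.5% and 12.5%, against 33.5% and 21.1% of all genes tested. Rspo1 and Rspo3, whose proteins are alike in structure, changed in opposite directions. Rspo1 had 5.4 and 5.58 FPKM in the wild type and 3.42 and 3.43 FPKM in the knockout (log2 difference -0.55, SE 0.06, limma adjusted p = 0.000351). Rspo3 had 0.69 and 0.78 FPKM in the wild type and 2.39 and 2.16 FPKM in the knockout (0.92, SE 0.09, limma adjusted p = 0.00023). Its ratio on the FPKM scale was 3.10, and with a pseudocount of 0.1 the log2 difference was 1.51. Rspo2 rose by 0.34 (limma adjusted p = 0.0198), from 3.51 and 2.9 FPKM to 4.05 and 4.58 FPKM. That call was lost without wild-type library 2 (0.24, adjusted p = 0.108), without knockout library 1 (0.41, adjusted p = 0.0532), without knockout library 2 (0.27, adjusted p = 0.142) and with no filter on low values (adjusted p = 0.0641). Rspo4 stayed at or under 0.22 FPKM.

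Among the receptors of R-spondins, the abundant Lgr4 was at 27.9 and 28.6 FPKM in the wild type and 27.7 and 28.3 FPKM in the knockout, with overlapping groups and a log2 difference of -0.01 (95% interval -0.09 to 0.07). With TPM it was called higher (0.11, limma adjusted p = 0.0338). The scarcer stem cell markers Lgr5 and Lgr6 rose. Lgr5 had 1.5 and 1.24 FPKM against 2.35 and 2.54 FPKM (0.54, limma adjusted p = 0.00265), and Lgr6 1.61 and 1.82 FPKM against 3.24 and 3.07 FPKM (0.61, limma adjusted p = 0.000814). Of the ligases, Rnf43 had 1.04 and 1.33 FPKM against 2.55 and 2.3 FPKM (0.65, limma adjusted p = 0.00161; 0.98 with a pseudocount of 0.1). Znrf3 was at 3.45 and 3.65 FPKM and 3.91 and 3.9 FPKM and did not pass (0.11, 95% interval -0.05 to 0.27), except with TPM (0.23, limma adjusted p = 0.0342). After scaling without crystallin and haemoglobin genes its difference was 0.04 (adjusted p = 0.608).

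Of the 7 beta-catenin, Axin and TCF/LEF genes, 5 rose and none fell in the limma test. The shares were 71.4% and 0%, against 33.5% and 21.1% of all genes tested. A fall with an unadjusted p under 0.05 was found in 0 of the 7. Ctnnb1, which encodes beta-catenin and also serves cell junctions, was at 278 and 276 FPKM in the wild type and 299 and 302 FPKM in the knockout (log2 difference 0.12, SE 0.03, limma adjusted p = 0.00885). Its difference was 0.04 (adjusted p = 0.272) after scaling without crystallin and haemoglobin genes, 0.07 (adjusted p = 0.0617) with median-of-ratios scaling and 0.24 with TPM. The call was also lost without either knockout library (adjusted p = 0.0685 without library 1 and 0.0902 without library 2). Exons of Ulk4 on the other strand cover 14.6% of its exon bases, and Ulk4 itself fell by 0.37. Axin1, the scaffold of the destruction complex, had overlapping groups, at 22.7 and 21.5 FPKM in the wild type and 21.7 and 22.3 FPKM in the knockout (-0.00, 95% interval -0.10 to 0.09).

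Axin2, a scaffold and a feedback target of the pathway, rose by 0.27 (limma adjusted p = 0.00506), from 6.54 and 6.96 FPKM to 8.31 and 8.41 FPKM. Of the TCF factors, Tcf7l1, mostly a repressor, had 9.15 and 9.86 FPKM in the wild type and 14.1 and 15.7 FPKM in the knockout (0.60, SE 0.06, limma adjusted p = 0.000243). Tcf7l2 had 7.19 and 8.09 FPKM against 11.7 and 11.2 FPKM (0.53, SE 0.06, limma adjusted p = 0.000486). These 2 were the most abundant of the 4 TCF/LEF genes in every library. Lef1 rose by 0.28 (limma adjusted p = 0.026), a call lost after scaling without crystallin and haemoglobin genes (0.22, adjusted p = 0.0553) and without wild-type library 1 (adjusted p = 0.110), knockout library 1 (adjusted p = 0.0910) or knockout library 2 (adjusted p = 0.115). With TPM its difference was 0.43. Tcf7 had overlapping groups and a difference of 0.20 (95% interval -0.04 to 0.44), which passed with TPM (0.34, limma adjusted p = 0.0289) and was 0.08 without knockout library 2 (adjusted p = 0.568) and 0.12 without wild-type library 1 (adjusted p = 0.475).

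**Figure D4:**
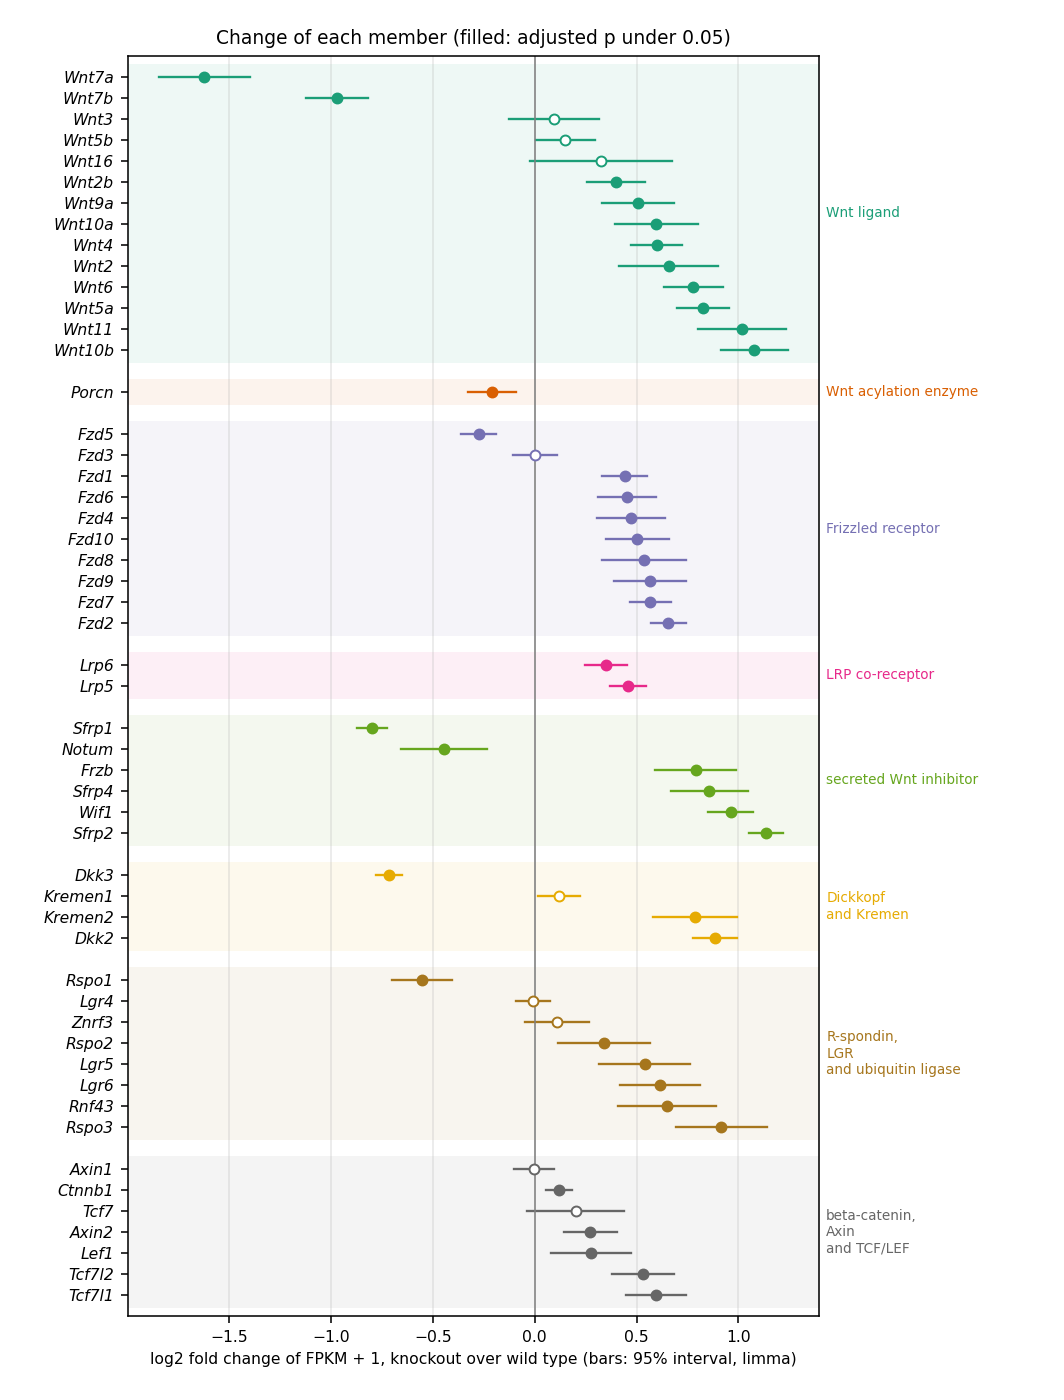
Log2 difference, knockout over wild type, with its 95% interval from limma (horizontal axis) for the 52 tested members by role; filled points have an adjusted p under 0.05. Ligands and secreted inhibitors span the widest range, from -1.62 for Wnt7a to 1.13 for Sfrp2, and the 7 genes inside the cell lie between -0.005 and 0.60; with other scalings Porcn, Lef1 and Ctnnb1 lose their call and Lgr4 is called higher with TPM.

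Further genes of the pathway were followed through lists drawn up from textbook knowledge, with earlier results of these data known. The shares of these lists are therefore descriptions and no test. Among 14 other secreted or membrane modulators, 12 were tested, with a median of 0.47. In the limma test 9 rose and none fell (75% and 0%, against 33.5% and 21.1% of all genes tested). A fall with an unadjusted p under 0.05 was found in 0 of the 12. Apcdd1, a membrane inhibitor and Wnt target, had 7.34 and 6.75 FPKM in the wild type and 13.7 and 14.6 FPKM in the knockout (log2 difference 0.91, limma adjusted p = 2.67e-05). Sostdc1, a secreted LRP inhibitor, had 10.6 and 9.88 FPKM against 19 and 18.96 FPKM (0.83, limma adjusted p = 1.65e-05). Shisa3 rose by 0.81, Igfbp4 by 0.70 and the heparan sulphate proteoglycans Gpc3 and Gpc4 by 0.68 and 0.59. With median-of-ratios scaling, and without crystallin and haemoglobin genes, 8 of the 12 rose and 1 fell. Over the 13887 genes tested, 3936 rose and 3685 fell with the first of these scalings, and 3533 and 4330 with the second. Of the 12 planar cell polarity genes, 6 rose and 1 fell (50% and 8.33%, against 33.5% and 21.1%), with a median of 0.20. The lowest p values there belonged to Daam1, a formin that acts downstream of Dishevelled and fell by 0.38 (limma adjusted p = 0.000602), and Daam2, which rose by 0.33 (adjusted p = 0.00162).

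Of 17 Dishevelled and destruction complex genes, 5 rose and 5 fell (29.4% each, against 33.5% and 21.1% of all genes tested), all by less than 0.5 on the log2 scale, with a median of 0.02. Of the 13887 genes tested, 6926 rose and 1667 fell with TPM, and 3936 and 3685 with median-of-ratios scaling. Without crystallin and haemoglobin genes, 3533 rose and 4330 fell. The balance of the 17 genes followed the scaling as well. It was 9 higher and 3 lower with TPM, 2 and 6 with median-of-ratios scaling and 1 and 7 without crystallin and haemoglobin genes. The lowest p values were those of Apc, the tumour suppressor scaffold, with 25.7 and 26.01 FPKM against 21.02 and 20.99 FPKM (-0.29, limma adjusted p = 0.000502), and Siah1a, a ubiquitin ligase (-0.29, limma adjusted p = 0.000847). Of 15 nuclear cofactors measured, 4 rose and 3 fell (26.7% and 20%, also near the shares over all genes), with a median of -0.02, and the counts were 8 and 1 with TPM and 3 and 6 without crystallin and haemoglobin genes. The co-repressor gene Tle2 stood apart, with 8.95 and 7.19 FPKM against 14.5 and 15.2 FPKM (0.81, limma adjusted p = 0.000304).

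Of 13 measured genes often used as readouts of beta-catenin signalling, 8 were tested, with a median of 0.65. Of these, 6 rose and 1 fell (75% and 12.5%, against 33.5% and 21.1% of all genes tested). The counts were the same under the 3 other scalings. Over all 13887 genes tested, those scalings called 3533 to 6926 genes higher and 1667 to 4330 lower. Tnfrsf19 had 6.52 and 5.97 FPKM in the wild type and 11.2 and 11.5 FPKM in the knockout (log2 difference 0.77, limma adjusted p = 5.07e-05). The adhesion receptor gene Cd44 rose by 0.73, Myc by 0.66, Fgf18 by 0.64 and Nkd2 by 0.32, and Apcdd1 is on this list too. Nkd1, a feedback inhibitor, did not pass (-0.03, limma adjusted p = 0.529). Ccnd1, which encodes the cell cycle protein cyclin D1, was by far the most abundant of the list and fell, from 703 and 711 FPKM to 379 and 374 FPKM (-0.91, limma adjusted p = 1.6e-06). Many of these genes have other inputs besides Wnt signalling and differ in level between tissues. The sums of mesenchyme, bone and lens markers moved by 2.21, 8.28 and 0.0987 times across the same libraries, and their part in these counts was not tested.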

How the data were processed

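The authors deposited 1 table per library with FPKM values and TPM values, per the file headers. HISAT2, TopHat, Cufflinks and DESeq and the builds GRCm38 and GRCh38 are named, without roles, per the submitters' processing notes. The annotation, any filter and the strand setting were not stated in the material used. FPKM is relative to all fragments of a library, so a fall in abundant transcripts raises other values.

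The spacing of 193 to 223 low FPKM values per library, chosen on the assumption of a depth near that value, gave 17640000 to 17840000 fragments. Only 54.7% to 60.1% of them lay within 0.15 of a whole fragment, against 30% by chance for a depth set beforehand. The depth was fitted to these same values, which raises that share. With so low a share, counts were not recovered and no count test was run. In estimated fragments, replicates differed by more than sampling noise (chi-square per gene 1.85 over 1399 wild-type and 1.75 over 1442 knockout genes). They were kept as 2 per group.

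After log2(FPKM + 1), the 13887 genes whose mean reached 1 FPKM entered limma 3.58.1 (run in R 4.3.3), with genotype as term and a variance trend. The p-values were adjusted over all of them, two-sided, with 2 residual and 4.89 prior degrees of freedom. The code was tested on simulated data. Python 3.11.15, numpy 2.4.6 and pandas 2.3.3 joined and counted. Coordinates are those of GENCODE on GRCm38, and promoters those of RefSeq.

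The members and lists were chosen with earlier results of these data known. Every member may be named. A member is given in every library where it passed with a log2 difference of at least 0.5 or a mean of at least 20 FPKM. Of each of 7 pathway lists, those past the threshold by at least 0.5 are named, or else the 2 with the lowest p. The 12 marker lists are given as sums. Promoters were to be those of the widest called changes with a mean of at least 5 FPKM. Among the promoters found, the widest such fall was that of Fzd5, which was not shown. Wnt7a, below that mean, was added after its values were seen. So were the class shares, other named list members and the motifs kept out of 8 looked at. Alternatives were another pseudocount, other filters, 3 other scalings, the replicate number as a block, and leaving out each library.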

Additional observations from a re-analysis of the deposited data

How the results depend on the processing

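The count of members that rose, 35 of 52, fell to 23 with at least 5 FPKM in at least 2 libraries, a filter that leaves 34 members to test. Under the other alternatives it was 25 with a log2 difference of at least 0.5 required, 33 to 41 under the other scalings, and 32 to 34 when each library was left out. The count that fell, 8, was 5 with a log2 difference of at least 0.5 required, 6 with the stricter filter, 7 with TPM, and 7 to 8 when each library was left out. Over all 13887 genes tested, the other scalings called 3533 to 6926 genes higher and 1667 to 4330 lower. Lgr4 reversed with TPM, from -0.01 to 0.11. With no filter on low values, 36 of the 61 members rose and 8 fell, with a median log2 difference of 0.35. That setting called 4575 of 18697 genes higher and 2767 lower. Secreted inhibitors called higher then numbered 5 of 7, and Dickkopf and Kremen genes 3 of 6, against 4 and 2 with the filter. Of the 43 members called, 38 kept their call without each library and 38 under every alternative that tested them. With the replicate number as a block (replicate block), 37 rose and 8 fell, and Kremen1 (adjusted p = 0.0394) and Tcf7 (adjusted p = 0.0437) passed as well. Deviations of same-numbered libraries correlated at 0.04 with only 2 pairs, so the numbers do not show a pairing. When a library is left out, the lone library of its group is assumed to vary like the other group. With 2 libraries per group, the spread rests largely on values shared across genes. Genes of about 1 FPKM rest on few fragments (Wnt2 on an estimated 40 to 98 per library). Fragment estimates use the longest annotated transcript and the estimated depth, and are upper guides.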

Other observations

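Ratios between members of a class within a library do not depend on its scaling. The pairs below were chosen after their values were seen, joining in each class an abundant member that fell with an abundant member that rose, so their direction is fixed by the choice and no test is given. The FPKM ratio of Sfrp1 to Sfrp2 was 1.73 and 1.84 in wild-type libraries against 0.457 and 0.451 in knockout libraries. That of Fzd5 to Fzd2 was 1.54 and 1.56 in the wild type and 0.800 and 0.781 in the knockout. Both ratios lay above 1 in each wild-type library and below 1 in each knockout library. For Wnt7b to Wnt5a the ratio was 4.46 and 3.79 in the wild type and 1.03 and 1.06 in the knockout, so that the levels of these ligands were close in the knockout. Dkk3 exceeded Dkk2 35.9 and 37.5 times in the wild type and 11.4 and 11.5 times in the knockout, and made up 90.5% and 90.4% against 81.1% and 80.3% of the Dickkopf and Kremen FPKM.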
